A study of Mus musculus with 10 samples.

Results

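The genes that make, store, take up and break down acetylcholine were followed in the medial habenula of mice in nicotine withdrawal. They were the 9 rows that the deposited table lists for Chat, Slc18a3, Slc10a4, Slc5a7, Slc44a1, Slc44a2, Ache, Bche and Prima1, of 56691 genes in all, chosen by symbol. The withdrawal group held 6 wild-type mice that had 2 injections a day of nicotine ditartrate (4 mg/kg, into the peritoneum) over 14 days, with saline in its place from day 15. The control group held 4 wild-type mice injected with saline for 17 days. Tissue of both groups was taken on day 17, and each mouse gave 1 RNA library. Strain, sex, age and batch are not given in the labels used here.

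Acetylcholine is made in the nerve terminal from choline and acetyl-CoA, is pumped into vesicles, and after release is split by cholinesterases so that the choline can be taken up again. The medial habenula is a small nucleus above the thalamus whose ventral neurons are cholinergic and project to the interpeduncular nucleus. This projection is known for its dense nicotinic receptors and for its part in the aversive signs of nicotine withdrawal.

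The libraries held between 15023448 and 22026333 counts each, and all 9 genes passed the filter on low values. In withdrawal 2 and control 2 the summed level of 12 medial habenula markers (such as Pou4f1, Chrnb4 and Nwd2) was 69.1 and 55.7 CPM (counts scaled to a common library size). The other 5 withdrawal libraries held 1625 to 2439 CPM of it, and the other 3 controls 1757 to 2429 CPM. Each comparison is therefore given over all 10 libraries and over the 8 others. The source label names sorted cholinergic neurons, while the design text names tissue of the medial habenula and no sort. Summed oligodendrocyte markers lay between 6151 and 15230 CPM in withdrawal and between 9005 and 12800 CPM in controls, so glial RNA was present in all 10 libraries. The libraries are of mixed cells, in which fewer cells of a type and less RNA per cell cannot be told apart.

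Chat and Slc18a3 form 1 locus: in GENCODE M21 the transporter gene lies inside Chat, on the same strand, and shares no exon bases with it. The stretches before the RefSeq starts (GRCm38.p6) are printed for Chat, Slc18a3 and Slc5a7 because these 3 genes varied together across libraries, and for Ache and Slc44a1 because they passed the test in 8 libraries. The stretches are chr14:32465990-32466159 for Chat, chr14:32464851-32465100 for Slc18a3 and chr17:54299035-54299284 for Slc5a7, all on the minus strand, and chr5:137288058-137288253 for Ache and chr4:53440163-53440412 for Slc44a1, both on the plus strand. Bases that GENCODE M21 places in an exon of the same gene were left out, which leaves 170 of 250 bases for Chat and 196 for Ache. Capitals mark GC boxes (GGGCGG) and cyclic AMP response element half-sites (TGACG), read on either strand.
Chat: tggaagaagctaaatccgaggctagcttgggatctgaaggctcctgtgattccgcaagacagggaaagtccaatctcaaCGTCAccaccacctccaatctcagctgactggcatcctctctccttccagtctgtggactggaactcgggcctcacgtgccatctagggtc
Slc18a3: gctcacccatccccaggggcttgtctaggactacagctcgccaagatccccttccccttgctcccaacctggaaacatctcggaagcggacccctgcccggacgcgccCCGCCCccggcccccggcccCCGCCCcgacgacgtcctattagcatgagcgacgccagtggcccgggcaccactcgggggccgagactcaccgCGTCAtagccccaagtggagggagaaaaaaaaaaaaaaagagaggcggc
Slc5a7: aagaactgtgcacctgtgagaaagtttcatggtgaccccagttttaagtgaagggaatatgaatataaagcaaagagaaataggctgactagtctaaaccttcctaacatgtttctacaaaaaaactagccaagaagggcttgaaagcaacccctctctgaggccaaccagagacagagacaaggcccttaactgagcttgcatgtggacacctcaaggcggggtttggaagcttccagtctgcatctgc
Ache: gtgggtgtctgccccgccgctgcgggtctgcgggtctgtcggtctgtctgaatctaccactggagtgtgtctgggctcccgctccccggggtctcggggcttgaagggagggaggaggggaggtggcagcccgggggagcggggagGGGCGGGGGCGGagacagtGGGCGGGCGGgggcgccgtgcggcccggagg
Slc44a1: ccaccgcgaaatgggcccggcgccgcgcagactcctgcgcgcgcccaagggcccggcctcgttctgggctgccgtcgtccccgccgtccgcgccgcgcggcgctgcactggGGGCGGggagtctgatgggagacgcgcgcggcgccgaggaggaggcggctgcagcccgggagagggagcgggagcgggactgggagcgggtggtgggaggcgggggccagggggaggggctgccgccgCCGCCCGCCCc

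Over 250 bases, the CRE half-site was found in Chat and in Slc18a3, once each, and in none of the other 7 genes. It is in 17.8% of 32851 RefSeq windows of that length. The GC box, in 32.7% of windows, was found 4 times in Ache and in Slc10a4, 3 times in Slc44a1, 2 times in Slc18a3 and in Bche, and once in Slc44a2 and in Prima1, with some matches overlapping. Chat and Slc5a7 had none. The TATA box letters (TATAAA, 12.4% of windows) were found once, in Slc5a7, and the letters TAATTA (4.84%) and AGAACA (16.1%) in none of the 9. The share of G and C was 81.2% for Slc44a1 and 73.6% for Ache, 66.0% for Slc18a3, 54.8% for Chat and 45.6% for Slc5a7, with a median of 52.4% over all windows. These matches describe letters, not binding.

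Levels between genes are compared per length, as FPKM over the 8 libraries. Ache was the most abundant, with a median of 27.6 FPKM (16.9 to 34.4), and Slc5a7 followed with 24.7 FPKM (18.3 to 27.2). Slc44a1 had a median of 18.4 FPKM, Prima1 12.3, Slc18a3 8.94, Chat 8.23 and Slc44a2 6.07. Bche and Slc10a4 were lowest, with medians of 1.24 and 1.08 FPKM. The ranges of neighbours in this order overlapped, except for Slc44a1 above Prima1 and Slc44a2 above Bche. Prima1 was also above Slc18a3 within each of the 8 libraries, although their ranges overlapped. This order depends on the gene lengths behind FPKM, 1250 bases for Prima1 and 2410 for Slc18a3. In CPM, which is not scaled to length, the median was 15.0 for Prima1 and 20.9 for Slc18a3. Slc5a7, the choline transporter of cholinergic terminals, was above Chat in all 8 libraries, and Ache was above Slc5a7 in 6 of them.

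**Figure D1:**
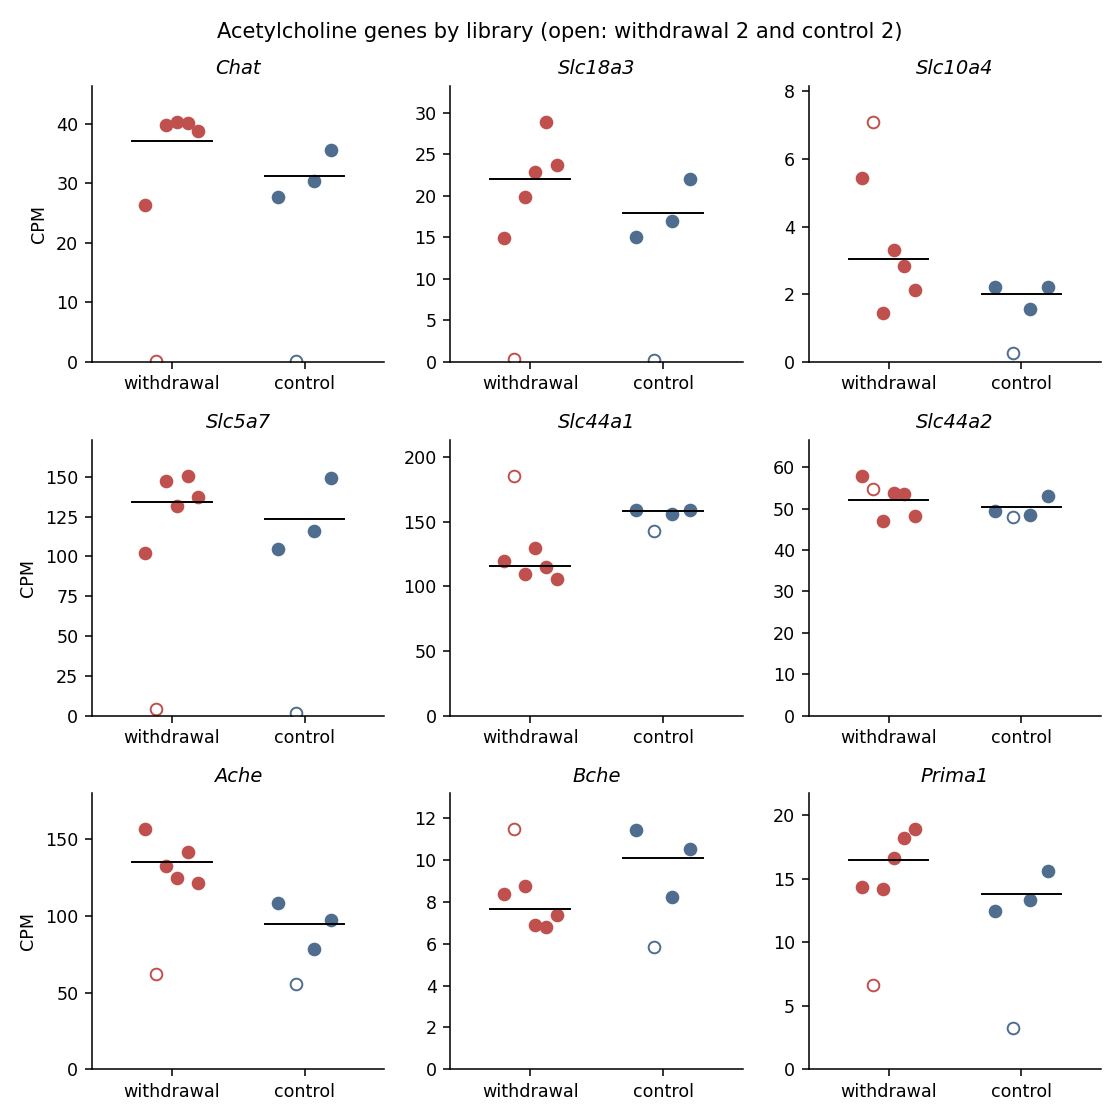
Normalised counts (CPM, linear axes from 0) of the 9 genes, 1 point per library, with withdrawal left of control, open points for withdrawal 2 and control 2, and lines at the means of the other 5 withdrawal and 3 control libraries. Chat, Slc18a3 and Slc5a7 lie near 0 in both open libraries, while Slc44a1 and Slc44a2 do not.

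Synthesis was represented by Chat (ENSMUSG00000021919), choline acetyltransferase, which joins choline to the acetyl group. Chat had 26.4, 39.8, 40.3, 40.2 and 38.9 CPM in withdrawal 1, 3, 4, 5 and 6, against 27.7, 30.4 and 35.6 CPM in control 1, 3 and 4. Withdrawal 1 was below every control and the other 4 withdrawal libraries were above every control, so the groups overlapped. In withdrawal 2 and control 2 it had 4 and 3 counts. Over 10 libraries Chat had a log2 fold change of 0.40 (SE 1.07, edgeR adjusted p = 0.875), and over 8 libraries 0.24 (SE 0.143, 95% interval -0.08 to 0.56, edgeR adjusted p = 0.293). Over 8 libraries less withdrawal 1, Chat passed at 0.34 (edgeR adjusted p = 0.0489).

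Vesicle loading was represented by Slc18a3 (ENSMUSG00000100241), the vesicular acetylcholine transporter, and Slc10a4 (ENSMUSG00000029219), an orphan protein of the bile acid transporter family found on vesicles of cholinergic and monoaminergic neurons. Slc18a3 had 15.0, 19.8, 22.9, 28.9 and 23.8 CPM in withdrawal 1, 3, 4, 5 and 6, against 15.0, 16.9 and 22.0 CPM in control 1, 3 and 4. The groups overlapped, with withdrawal 5 highest and withdrawal 1 and control 1 lowest of these 8. Withdrawal 2 and control 2 had 6 and 3 counts. Its log2 fold change was 0.45 over 10 libraries (SE 1.00, edgeR adjusted p = 0.846) and 0.28 over 8 (SE 0.200, edgeR adjusted p = 0.372).

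Slc10a4 was read from few counts, 92, 29, 57, 58 and 40 in withdrawal 1, 3, 4, 5 and 6, against 34, 26 and 48 in control 1, 3 and 4. These were 5.44, 1.45, 3.29, 2.83 and 2.13 CPM in withdrawal, against 2.21, 1.58 and 2.22 CPM in controls. Withdrawal 1 was highest and withdrawal 3 lowest of these 8, so that controls lay within the withdrawal range. Withdrawal 2 had 143 counts (7.10 CPM), the most of all 10, and control 2 had 5. The log2 fold change was 1.24 over 10 libraries (SE 0.578, edgeR adjusted p = 0.333) and 0.57 over 8 (SE 0.388, edgeR adjusted p = 0.350). Unlike Slc18a3, Slc10a4 did not follow Chat across the 8 libraries (Pearson r = -0.33, n = 8), and stood beside Slc44a2 instead (r = 0.93). The 8 points share their libraries and span both groups.

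Choline uptake at the terminal was represented by Slc5a7 (ENSMUSG00000023945), the high-affinity choline transporter that feeds acetylcholine synthesis. Slc5a7 had 101.9, 148, 132, 151 and 137 CPM in withdrawal 1, 3, 4, 5 and 6, against 104.8, 116, and 149 CPM in control 1, 3 and 4. Both groups spanned nearly the same range, with withdrawal 1 and control 1 lowest. Withdrawal 2 and control 2 had 79 and 25 counts. Its log2 fold change was 0.27 over 10 libraries (SE 0.993, edgeR adjusted p = 0.910) and 0.11 over 8 (SE 0.141, 95% interval -0.21 to 0.42, edgeR adjusted p = 0.642). Across the 8 libraries Slc5a7 had r = 0.91 with Chat and 0.87 with Slc18a3, and Chat and Slc18a3 had 0.90 with each other (n = 8). The rank correlations (Spearman) of these pairs were lower, at 0.69, 0.81 and 0.83.

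The choline transporter-like proteins Slc44a1 (ENSMUSG00000028412) and Slc44a2 (ENSMUSG00000057193) carry choline with lower affinity in many cell types, largely for membrane phospholipid. Slc44a1 had 120, 109, 130, 115 and 105 CPM in withdrawal 1, 3, 4, 5 and 6, against 159, 156 and 159 CPM in control 1, 3 and 4. All 5 withdrawal libraries were below all 3 controls, with means of 116 ± 9.51 CPM in withdrawal (SD, n = 5) and 158 ± 1.78 CPM in controls (SD, n = 3). Slc44a1 fell by 0.46 on the log2 scale over 8 libraries (SE 0.0688, edgeR adjusted p = 0.00517). Withdrawal 2, at 186 CPM, was above every other library, and control 2 had 143 CPM. Over all 10 libraries the groups overlapped and the log2 fold change was -0.27 (SE 0.150, edgeR adjusted p = 0.388), but it was -0.42 without withdrawal 2 (edgeR adjusted p = 0.0211). In GENCODE M21, 4.46% of the exon bases of Slc44a1 lie over 1700060J05Rik on the other strand, and the strand setting of the counting is not given in the sources used here.

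Slc44a2 had 58.0, 47.0, 53.9, 53.7 and 48.4 CPM in withdrawal 1, 3, 4, 5 and 6, against 49.6, 48.5 and 53.0 CPM in control 1, 3 and 4. The groups overlapped, and withdrawal 2 and control 2, at 54.8 and 48.0 CPM, lay within the range of the other 8. Its log2 fold change was 0.04 over 8 libraries (SE 0.0783, 95% interval -0.13 to 0.22, edgeR adjusted p = 0.760) and 0.08 over 10 (SE 0.0727, edgeR adjusted p = 0.585).

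Breakdown was represented by Ache (ENSMUSG00000023328), acetylcholinesterase, which ends the signal at synapses, and Bche (ENSMUSG00000027792), butyrylcholinesterase, a broader esterase found in glia and blood plasma. Ache had 157, 133, 125, 142 and 121 CPM in withdrawal 1, 3, 4, 5 and 6, against 108.5, 78.2 and 97.4 CPM in control 1, 3 and 4. All 5 withdrawal libraries were above all 3 controls, with means of 135 ± 14.1 CPM in withdrawal (SD, n = 5) and 94.7 ± 15.3 CPM in controls (SD, n = 3). Ache rose by 0.51 on the log2 scale over 8 libraries, or 1.42-fold (SE 0.114, edgeR adjusted p = 0.0206). The call was lost without withdrawal 5 (0.49, edgeR adjusted p = 0.0535) and without control 3 (0.39, edgeR adjusted p = 0.0604).

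In withdrawal 2 and control 2 Ache had 62.0 and 55.4 CPM, below all 8 others. Over 10 libraries the groups overlapped, and the log2 fold change of Ache was 0.54 with a wider error (SE 0.257, edgeR adjusted p = 0.339). Gm42456, on the other strand, covers 2.12% of the exon bases of Ache. Bche had 8.39, 8.77, 6.88, 6.79 and 7.39 CPM in withdrawal 1, 3, 4, 5 and 6, against 11.4, 8.24 and 10.5 CPM in control 1, 3 and 4. Among these 8, control 3 alone of the controls lay within the withdrawal range, and withdrawal 2 and control 2 had 11.5 and 5.84 CPM. Its log2 fold change was -0.41 over 8 libraries (SE 0.143, edgeR adjusted p = 0.0869) and -0.12 over 10 (SE 0.214, edgeR adjusted p = 0.800).

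Prima1 (ENSMUSG00000041669) encodes the membrane anchor that holds acetylcholinesterase tetramers at the surface of neurons. Prima1 had 14.4, 14.2, 16.6, 18.2 and 18.9 CPM in withdrawal 1, 3, 4, 5 and 6, against 12.4, 13.3 and 15.6 CPM in control 1, 3 and 4. Withdrawal 4, 5 and 6 were above every control, withdrawal 1 and 3 were not, and withdrawal 2 and control 2 were lowest at 6.65 and 3.22 CPM. The log2 fold change was 0.24 over 8 libraries (SE 0.129, edgeR adjusted p = 0.236) and 0.41 over 10 (SE 0.407, edgeR adjusted p = 0.629). Across the 8 libraries the anchor followed Slc18a3 (r = 0.88) and Chat (0.73) more closely than Ache (0.37). It had r = 0.68 with the summed medial habenula markers, 0.93 with summed blood markers and -0.805 with summed astrocyte markers. The part of such cells in the Prima1 values was not tested.

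Over all 10 libraries edgeR called 0 of the 9 genes, against 0.208% of 14928 genes tested, and 0 of the 9 had groups that did not overlap, against 3.30%. At an unadjusted p under 0.05 it was also 0 of 9, against 15.4%. DESeq2 and limma on log2(FPKM + 1) called 0 of the 9, and limma voom with sample quality weights called Ache (0.47, adjusted p = 0.0489) and Slc44a1 (-0.41, adjusted p = 0.0131). Over the 8 libraries edgeR called 2 of the 9, Ache higher and Slc44a1 lower, against 13.7% of 14993 genes, of which 6.24% were higher and 7.47% lower. These 2 genes were also the ones whose groups did not overlap, against 23.2% of genes, and 3 of 9 had an unadjusted p under 0.05, against 30.7%. The members' median log2 fold change was 0.24 over 8 libraries and 0.40 over 10, where that of all genes tested was 0.0076 and 0.0034. The share of members called over 8 libraries is near that of all genes.

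**Figure D2:**
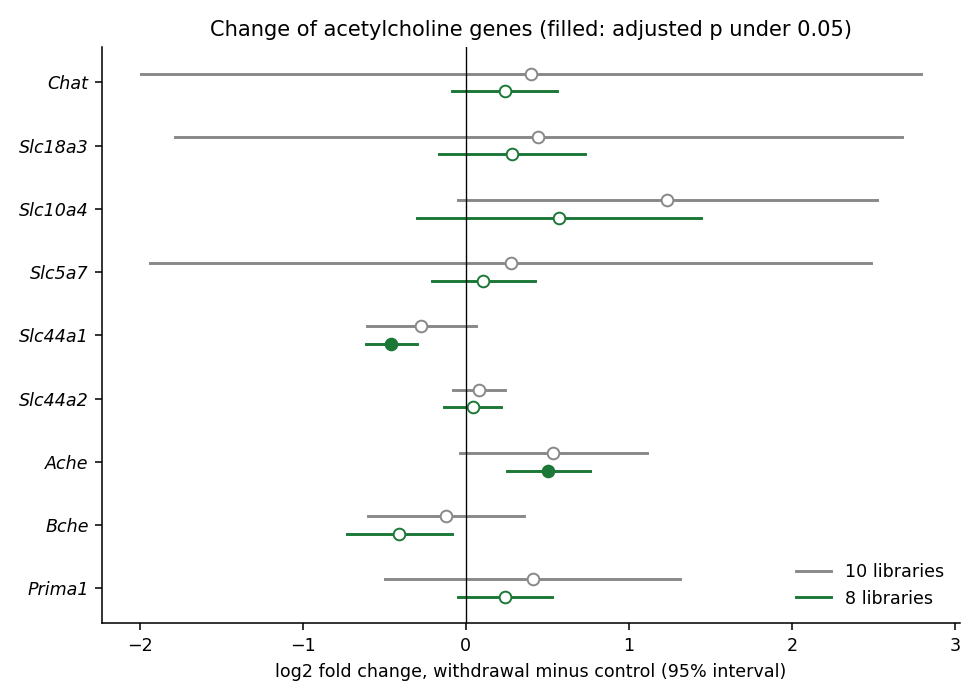
Log2 fold change, withdrawal minus control, with its 95% interval from edgeR for the 9 genes, over 10 libraries (grey) and 8 libraries (green). Filled points have an adjusted p under 0.05: Ache at 0.51 and Slc44a1 at -0.46, both over 8 libraries, and the intervals of Chat, Slc18a3 and Slc5a7 are widest over 10.

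Withdrawal 2 and control 2 separated the genes by how much of their RNA was left there. The percentages are of the median over the 8 other libraries, with exact Poisson 95% intervals that cover counting error only. Chat was at 0.533% (0.145 to 1.37) in withdrawal 2 and 0.440% (0.0908 to 1.29) in control 2. Slc18a3 was at 1.42% and 0.783% in the same libraries and Slc5a7 at 2.91% (2.31 to 3.63) and 1.01% (0.656 to 1.5). The 12 medial habenula markers ran from 0.379% (Chrnb3) to 12.3% (Gng8) in withdrawal 2 and from 0.128% (Irx2) to 20.4% (Tac1) in control 2, and Chat, Slc18a3 and Slc5a7 lay within these ranges. Since these libraries were set apart by their habenula transcripts, this is a description and carries no test.

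Ache kept 50.4% in withdrawal 2 and 45.0% in control 2, and Prima1 kept 44.4% and 21.5%. Slc44a1 was at 149% in withdrawal 2 and 115% in control 2, Slc44a2 at 107% and 93.6%, and Bche at 138% and 70.3%. RNA of both esterases, of the anchor and of the broad choline carriers was thus present where Chat RNA was nearly absent. Slc10a4 lay furthest apart between these libraries, at 320% (270 to 377) in withdrawal 2 and 12.3% (4.00 to 28.8) in control 2. Summed GABAergic neuron markers were 1109 CPM in withdrawal 2 and 770 CPM in control 2, against 89.5 to 363 CPM in the other 8, and the part of these cells in the Slc10a4 value was not tested.

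**Figure D3:**
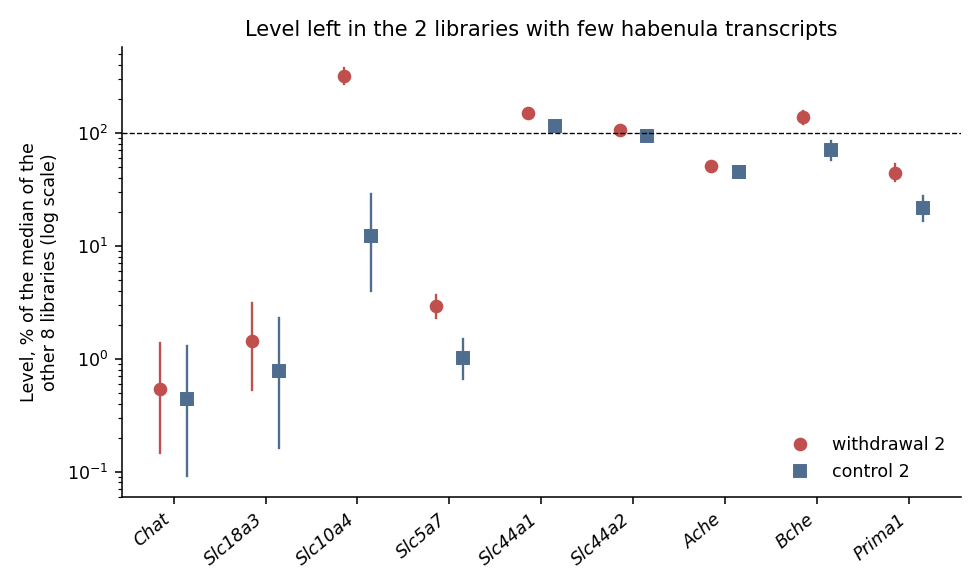
Level of each gene in withdrawal 2 (red circles, left) and control 2 (blue squares, right) as a percent of its median CPM in the other 8 libraries, on a log axis, with exact Poisson 95% intervals from the counts. Chat, Slc18a3 and Slc5a7 lie under 3%, Ache and Prima1 between 21.5% and 50.4%, and Slc44a1 and Slc44a2 near or above the dashed line at 100%.

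Levels were then set relative to Chat within each of the 8 libraries, as the ratio of FPKM values. All these ratios share the error of Chat itself. Slc18a3 stood at 1.10, 0.970, 1.11, 1.40 and 1.19 times Chat in withdrawal 1, 3, 4, 5 and 6, against 1.06, 1.08 and 1.21 times in control 1, 3 and 4. Slc5a7 stood at 3.22, 3.09, 2.72, 3.12 and 2.94 times Chat in withdrawal, against 3.15, 3.17 and 3.49 times in controls. These were the tightest ratios: the highest of the 8 libraries was 1.28 times the lowest for Slc5a7 and 1.44 times for Slc18a3, against 5.65 times for Slc10a4.

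Slc44a1 stood at 3.08, 1.86, 2.18, 1.94 and 1.84 times Chat in withdrawal 1, 3, 4, 5 and 6, against 3.88, 3.47 and 3.03 times in control 1, 3 and 4. Withdrawal 1 passed control 4, and the other 4 withdrawal libraries were below all controls. Ache stood at 6.03, 3.39, 3.15, 3.58 and 3.18 times Chat in withdrawal, against 3.99, 2.61 and 2.79 times in controls. Withdrawal 1, which had the least Chat of these 8, held the highest ratio of Ache, Slc44a2, Slc10a4 and Prima1. Bche averaged 0.149 ± 0.0429 times Chat in withdrawal (SD, n = 5) and 0.228 ± 0.0534 times in controls (SD, n = 3), and Prima1 1.69 ± 0.268 and 1.66 ± 0.0217 times.

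In limma on log2(FPKM + 0.1), 0 of the 8 other genes passed relative to Chat, against 5.45% of 14992 genes tested, and 0 had groups that did not overlap, against 8.04%. At an unadjusted p under 0.05 it was 1 of 8, Slc44a1, against 18.2%, and edgeR with the Chat count as offset also called Slc44a1 alone (-0.67, adjusted p = 0.0263). The median of all genes was -0.22, where Chat itself had a fold change of 0.24, and differences are read against that shift. Slc44a1 had a log2 difference of -0.68 (SE 0.206, limma adjusted p = 0.0522), Bche -0.60 (SE 0.329, limma adjusted p = 0.339) and Ache 0.28 (SE 0.226, limma adjusted p = 0.504). Slc18a3 (0.04), Prima1 (0.01), Slc5a7 (-0.11), Slc44a2 (-0.19) and Slc10a4 (0.21) had limma adjusted p of 0.632 or more. Without withdrawal 1, Slc44a1 (-0.81, limma adjusted p = 0.0025), Bche (-0.75, 0.0364) and Slc44a2 (-0.34, 0.0376) passed, in a fit that called 5963 genes lower. Without control 4, Slc44a1 passed at -0.77 (limma adjusted p = 0.0498).

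**Figure D4:**
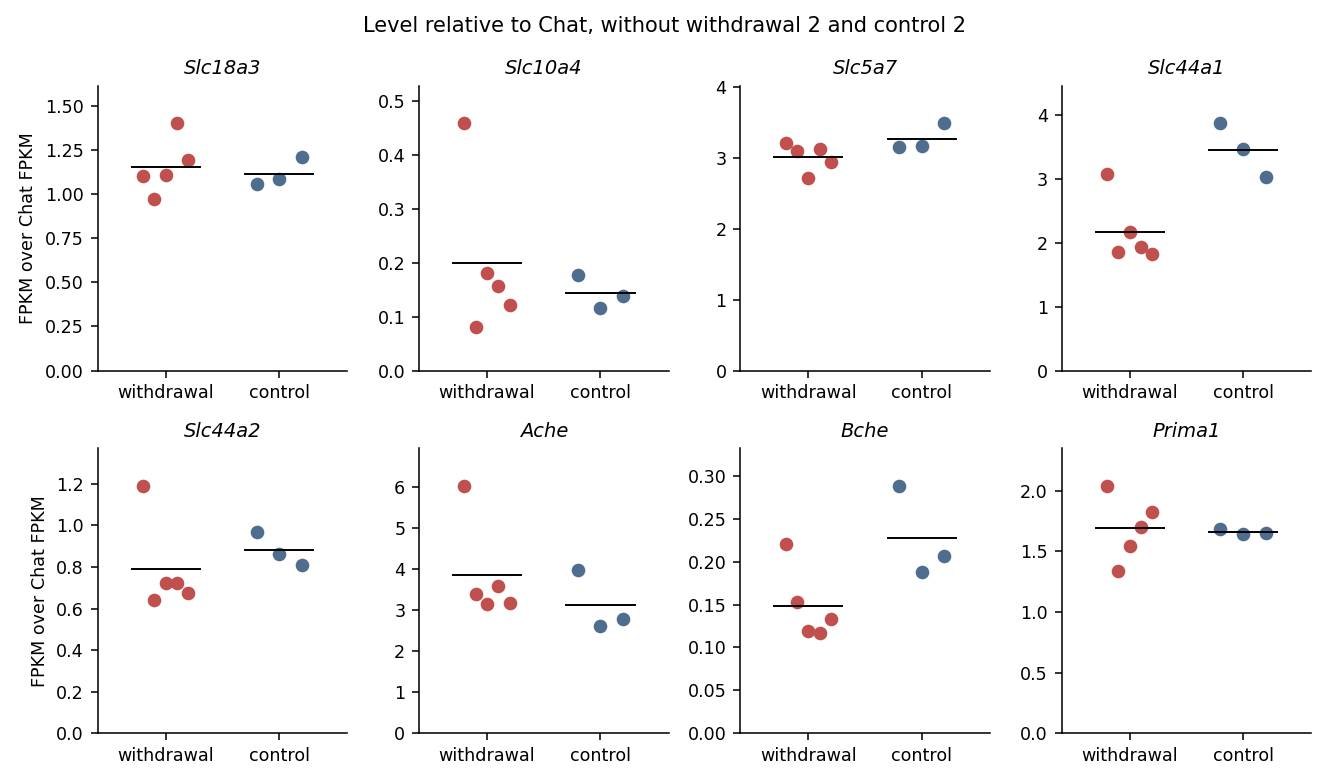
FPKM of the 8 other genes divided by the FPKM of Chat in the same library (linear axes from 0), withdrawal left of control, with lines at the group means (n = 5 and 3). Slc5a7 and Slc18a3 stay within narrow bands, from 2.72 to 3.49 and from 0.970 to 1.40, while the first withdrawal library is highest of 8 for Ache at 6.03.

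The genes most like each of 3 members were taken by Pearson correlation of log2(CPM + 1) over the 8 libraries among 11044 genes. Chat was followed by Kcnma1, a calcium-activated potassium channel (0.989), Flt3l, a cytokine (0.986), Chrnb4, a nicotinic receptor subunit (0.984), Gabbr1, a GABA-B receptor subunit (0.979), and Nwd2 (0.978). None of these 5 passed the test over 8 libraries (edgeR adjusted p from 0.247 to 0.476). Ache was followed by Sema4g, a semaphorin (0.995), Sdc3, a syndecan (0.994), Nxph1, a neurexin ligand (0.992), L1cam, an adhesion molecule (0.992), and Lhfpl3 (0.990). All 5 were higher in withdrawal, with log2 fold changes from 0.42 to 1.07 (edgeR adjusted p from 0.0113 to 0.0272). Slc44a1 was followed by Cldn11 (0.993), Cdc37l1 (0.992), Arrdc3 (0.988), Sirt2 (0.983) and Mal (0.982), and all 5 were lower (edgeR adjusted p from 0.00393 to 0.0170). Cldn11 and Mal encode proteins of the myelin sheath. These correlations describe libraries that also differ between groups. The genes were chosen by likeness over the same 8 libraries that gave their fold changes and adjusted p. Ache and Slc44a1 lay apart between the groups there, so genes chosen for likeness to them largely share that difference by choice. Their directions and calls are therefore a description and no separate test. The 13.7% of all genes called over 8 libraries is no yardstick for genes chosen this way.

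Markers listed for neighbouring cell types moved with Ache and with Slc44a1. Each r with a marker sum, for either gene, was taken over both groups together. Where gene and sum both lay apart between the groups, r holds that group difference. No r within a group was taken. The markers' counts of calls stand beside 6.24% of all genes called higher and 7.47% called lower over the 8 libraries. Summed thalamic neuron markers lay between 1042 and 1694 CPM in the 5 withdrawal libraries and between 661 and 1033 CPM in the 3 controls. Of these markers, 3 of 8 rose (Calb2, Lef1 and Slc17a6, edgeR adjusted p from 0.0154 to 0.0254). Most of the sum was Calb2 and Slc17a6 in each of the 8 libraries, so it mainly follows these 2 genes. Calb2 ran from 438 to 686 CPM in withdrawal and from 262 to 385 CPM in controls. Slc17a6 ran from 449 to 607 CPM and from 216 to 390 CPM. The sum of the other thalamic markers was not taken. Both genes were also low in the 2 libraries with few medial habenula transcripts. Calb2 had 219 CPM in withdrawal 2 and 7.21 CPM in control 2, and Slc17a6 had 85.5 and 5.30 CPM. Which cells held their RNA was not tested, so the sum is not a measure of thalamic tissue alone. Summed lateral habenula markers lay between 860.0 and 940.2 CPM in withdrawal and at or under 840.2 CPM in controls, and 2 of 6 rose (Gap43 and Vgf). The log2 fold change was positive for 4 of the 6 and negative for 2. Gap43 alone ran from 206 to 270 CPM in withdrawal and from 85.0 to 159 CPM in controls, and the sum without it was not taken. None of the 14 thalamic and lateral habenula markers was at 0 in any library. Ache had r = 0.95 with the thalamic sum, 0.92 with the lateral habenula sum and -0.0029 with the medial habenula sum (n = 8). Summed hippocampal and cortical markers ran the other way (r = -0.93 with Ache). They lay between 418 and 548 CPM in withdrawal and between 599.6 and 1101 CPM in controls. Of 7 tested, 3 fell: Neurod6 (-3.93), Neurod2 (-2.91) and Prox1 (-0.66), with edgeR adjusted p from 0.00298 to 0.0371. The log2 fold change was negative for 5 of the 7 and positive for 2. Neurod6 differed among controls, with 15.8, 56.2 and 3.19 CPM in control 1, 3 and 4, against 1.06 to 1.95 CPM in withdrawal. The part of these cells in the Ache result was not tested.

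Summed oligodendrocyte markers lay between 6151 and 10460 CPM in the 5 withdrawal libraries and between 11560 and 12800 CPM in the 3 controls, and 6 of 10 fell, Cldn11 by 0.84 on the log2 scale (edgeR adjusted p = 0.00687). Summed precursor markers lay between 289.5 and 357 CPM in withdrawal and between 399.8 and 408 CPM in controls, and 3 of 6 fell. Slc44a1 had r = 0.96 with the oligodendrocyte sum and 0.98 with the precursor sum (n = 8). Withdrawal 2, the library with the most Slc44a1, also had the most oligodendrocyte marker RNA, at 15230 CPM. Control 2 departed from this order. Its oligodendrocyte sum of 9005 CPM was below those of withdrawal 1 (9266 CPM) and withdrawal 4 (10460 CPM). Its Slc44a1, at 143 CPM, was above theirs (120 and 130 CPM). Summed meningeal fibroblast markers lay between 39.9 and 144 CPM in the 5 withdrawal libraries and between 188 and 235 CPM in the 3 controls (r = 0.76 with Slc44a1), and 2 of 6 fell, Col1a2 and Slc6a13. Astrocyte sums (r = 0.75, with 2 of 6 markers lower, Gfap and Aldh1l1) and microglia sums (r = 0.84, 0 of 6 called by edgeR, 2 at an unadjusted p under 0.05) overlapped between the groups. The astrocyte marker Aldoc went the other way (0.23, edgeR adjusted p = 0.0649), above all controls in the 5 withdrawal libraries but not called. The other 5 astrocyte markers had negative log2 fold changes. The part of these cells in the Slc44a1 result was not tested. Summed medial habenula markers overlapped between the groups, and 0 of 12 were called by edgeR over 8 libraries (0 at an unadjusted p under 0.05, against 30.7% of all genes). All 12 had a positive log2 fold change over 8 libraries, with a median of 0.12, where that of all genes tested was 0.0076.

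**Figure D5:**
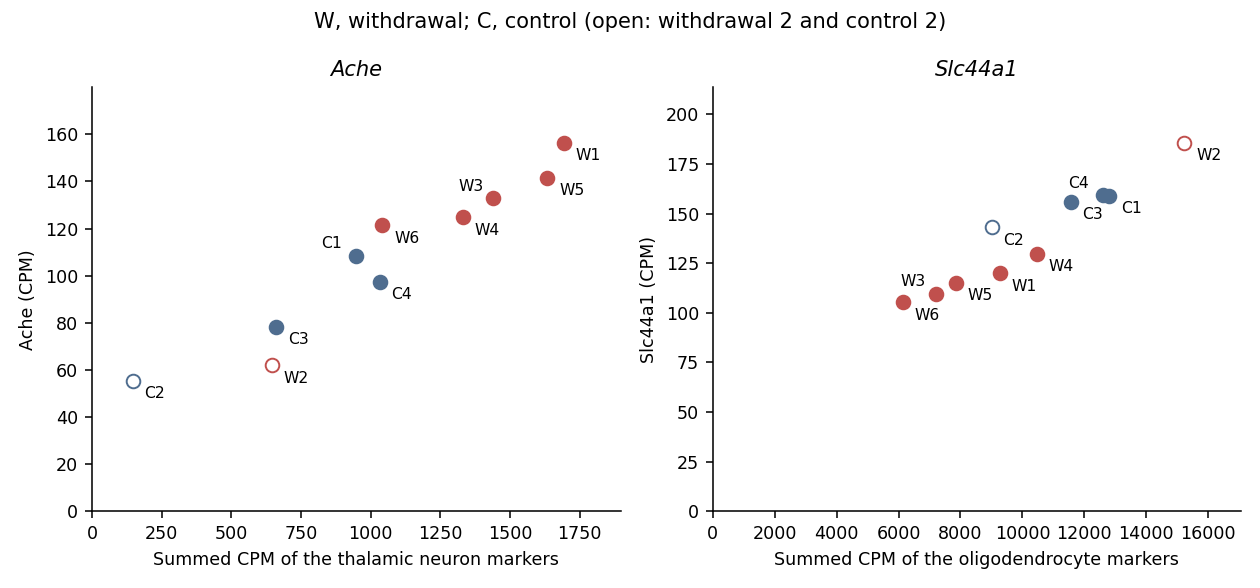
Left, Ache (CPM) against the summed CPM of 8 thalamic neuron markers; right, Slc44a1 (CPM) against the summed CPM of 10 oligodendrocyte markers, 1 point per library (W, withdrawal, red; C, control, blue; open, withdrawal 2 and control 2). Among the filled points both genes rose with their marker sums, and most of the thalamic sum was Calb2 and Slc17a6. Control 2 had more Slc44a1 than withdrawal 1 and 4 at a lower oligodendrocyte sum. The 5 filled withdrawal points are right of the 3 filled controls on the left and left of them on the right.

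Around the 9 genes, 43 genes of choline and acetyl-CoA metabolism were listed, and 33 were tested. Over 10 libraries edgeR called 0 of the 33 (7 at an unadjusted p under 0.05, against 15.4% of all genes tested, and 5 with groups that did not overlap, against 3.30%). Over 8 libraries it called 4 of the 33, 1 higher and 3 lower, against 13.7% of all genes tested, so the share called is near that of all genes. The 4 are given as values of named genes. Slc13a5, a plasma membrane citrate carrier listed for acetyl-CoA supply, had 10.8, 10.7, 7.74, 11.2 and 7.44 CPM in withdrawal 1, 3, 4, 5 and 6, against 5.72, 4.00 and 4.80 CPM in control 1, 3 and 4. It rose by 0.98 on the log2 scale over 8 libraries (SE 0.191, edgeR adjusted p = 0.0126), and over 10 the groups did not overlap either (0.89, edgeR adjusted p = 0.147). The other 8 genes of that list did not pass.

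Of 8 genes that release choline from lipids, Pld1, a phospholipase D, fell by 0.71 (edgeR adjusted p = 0.0114) and Pnpla7, a lysophospholipase, by 0.56 (edgeR adjusted p = 0.0114). Of 3 tested genes of choline oxidation, Sardh, sarcosine dehydrogenase, fell by 0.47 (edgeR adjusted p = 0.0281), all over 8 libraries. Relative to Chat, limma called 1 of the 33, against 5.45% of all genes tested: Chdh, choline dehydrogenase (-0.88, limma adjusted p = 0.0371). Among 6 tested genes that turn choline into phosphatidylcholine, 3 other carriers and 4 related esterase-fold genes and anchors, edgeR called 0 over 8 libraries (1, 1 and 0 at an unadjusted p under 0.05). Over the 33 genes the median log2 fold change was -0.05 over 8 libraries, against 0.0076 for all genes tested.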

How the data were processed

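RNA of each mouse was sequenced as 1 library (TRIzol and the VAHTS Universal V8 kit, as the labels' protocols say). The authors deposited raw read counts per gene and FPKM values (counts scaled to gene length and library size) in 1 table, per the file headers. The submitters' processing notes name cutadapt 1.9.1, HISAT2 2.2.1, HTSeq 0.6.1 and mm39; the annotation and strand setting are not given in the sources used here. Symbols came from the reference name table, and all 9 matched 1 ID each.

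Counts were scaled to CPM with TMM factors. Withdrawal was set against control with the quasi-likelihood test of edgeR 4.0.16 (R 4.3.3) for genes whose mean FPKM reached 1, with Benjamini-Hochberg adjustment over all genes tested and a threshold of 0.05. FPKM relative to Chat was tested with limma 3.58.1 on log2(FPKM + 0.1). All tests were 2-sided. DESeq2 1.42.0, limma with sample quality weights, other factors, filters and pseudocounts, a replicate block and leaving out each library were alternatives. The tests were also run on simulated counts in which all libraries shared the same mean per gene, apart from planted changes. Those counts held no shift in cell types between libraries, so the check does not cover such a shift. No 2 libraries were duplicates: at most 1.29% of genes had equal counts. Nothing in the labels says whether samples of a group were prepared apart, so p-values measure the spread between these libraries.

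The 9 genes, the lists and the 8-library set were chosen with earlier results of these data known. All 9 genes were to be named in every library, list genes when past the threshold in a fit of counts, and the 5 genes most like Chat, Ache and Slc44a1 among those with a mean of at least 10 CPM. Chdh, named beside them, was chosen after its values were seen. Upstream sequences are from RefSeq, exons from GENCODE M21. Intervals on counts cover counting error only.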

Additional observations from a re-analysis of the deposited data

Results flagged for a closer look

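Groups of 4 to 6 libraries, 35 in all, were checked for 1 value far from the others. The measure was its gap to the next, as a share of the whole range. Of these groups, 14 passed the critical value. Chance flags about 1 in 20 of independent groups, but these groups share genes and libraries. Withdrawal 2 or control 2 was the far library in 11 of the 14. These 2 libraries were already set apart by their habenula transcripts, so their flags are a description and carry no test. Withdrawal 2 was lowest for Chat (0.92), Slc18a3 (0.856), Slc5a7 (0.893), Ache (0.725) and Prima1 (0.727) and highest for Slc44a1 (0.633). Control 2 was lowest for Chat (0.954), Slc18a3 (0.922), Slc10a4 (0.837), Slc5a7 (0.925) and Prima1 (0.855).

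The other 3 were withdrawal 1 among 5 withdrawal libraries. It was lowest for Chat (0.912), at 26.4 CPM where the next had 38.9 CPM, and highest relative to Chat for Ache (0.80) and Slc44a2 (0.80), both of which contain the low Chat value.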

How the results depend on the processing

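Over 8 libraries Slc44a1 stayed lower and past the threshold in 9 of 9 other settings and 8 of 8 fits without 1 library. Ache was higher in all of them and called in 9 of 9 and 6 of 8. Bche was called with sample quality weights (-0.49, adjusted p = 0.0313). Of 423 refits of single genes, 399 kept direction and call, 12 gained a call, 2 lost it and 10 changed sign. Over 10 libraries less 1, Bche ranged from -0.29 to 0.014 (without control 1), Chat from -0.026 (without control 2) to 0.68 and Slc5a7 from -0.15 (without control 2) to 0.60. Relative to Chat and without 1 library, Prima1 ranged from -0.058 (without withdrawal 1; -0.018 without withdrawal 6) to 0.092, Slc10a4 from -0.14 (without withdrawal 1) to 0.45 and Slc18a3 from -0.030 (without withdrawal 5) to 0.10. Prima1 was -0.029 with Slc18a3 as denominator and -0.037 with the block, and Slc18a3 -0.073 with the block. The cause was not tested.

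The genes called over 10 libraries (31) came to 380 in DESeq2, 6 with library totals, 12 and 10 in limma on log2(FPKM + 1) and log2(FPKM + 0.1), 1698 with sample quality weights and 4 to 904 without 1 library, most without withdrawal 2. Of the calls over 10 libraries, 16.1% were higher, against 39.7% in DESeq2 and 0% with library totals. Over 8 libraries (2056) they came to 830 to 2894 without 1 library, and relative to Chat (817) to 1268 with the edgeR offset and 500 to 6026 without 1 library, most without withdrawal 1. Members called came to 0 to 1 (10 libraries), 1 to 3 (8) and 0 to 3 (relative to Chat) without 1 library, to 2 over 10 with sample quality weights, and relative to Chat to 1 with log2(FPKM + 1), the offset or the block.

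The deviations of same-numbered libraries had r from -0.15 to 0.35 over 10 libraries (0.32 for number 2 and 0.35 for number 4) and from -0.02 to 0.05 over 8. Not every pair was over 0.1 and no label says that a number is shared, so no pairing was assumed. With the replicate block 0 genes were called over 10 libraries, 958 over 8 and 1612 relative to Chat, and Ache and Slc44a1 were called over 8. Low counts limit Chat and Slc18a3 in withdrawal 2 (4 and 6 counts) and Chat, Slc18a3 and Slc10a4 in control 2 (3, 3 and 5 counts).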
